A study of Mus musculus with 18 samples.

Results

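The tumour suppressor p53 and 8 genes of its cell cycle and stress response were followed through mouse germ cell induction and culture. The 9 genes were taken by symbol: Trp53, which encodes p53, and Mdm2, Cdkn1a, Ccng1, Phlda3, Sesn2, Aen, Zmat3 and Trp53inp1. They are 9 of the 34850 genes with a value in every library, and all 9 reached the 10 RPM in at least 2 libraries that a gene needed to be tested, as did 9561 genes in all. RPM is a gene's reads scaled to a common library total, so that each library's values sum to about the same number. The libraries were made by SC3-seq, which reads the 3′ ends of messenger RNA, here from 1 ng of RNA and length does not enter a value.

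The study asked which added factors support germ cells in culture, and its 18 libraries form 9 groups of 2. Embryonic stem cells (ESC), epiblast-like cells (EpiLC) and primordial germ cell-like cells at day 4 of induction (d4 PGCLC) have the strain label C57BL/6. The 4 d4c7 groups are PGCLCs taken at day 4 and cultured for 7 days, labelled strain B6D2F1, under FR10, cyclosporin A (CsA), FGF10 or FGF2. FR10 stands for forskolin and rolipram, a pair of drugs that raise cyclic AMP, the first at 10 µM. All of these 7 groups carry 2 reporter transgenes, Blimp1-mVenus and Stella-ECFP. The 2 E9.5c5 groups are primordial germ cells from embryonic day 9.5, cultured for 5 days in FR10 or CsA, with a Stella-EGFP reporter on the background labelled B6D2F1 x C57BL/6. ESCs and EpiLCs were not sorted, d4 PGCLCs and d4c7 cells were sorted for mVenus, and E9.5c5 cells for EGFP. ESCs were kept in 2 kinase inhibitors with LIF, EpiLCs were made with activin A and FGF2, and PGCLCs with BMP4, LIF, SCF and EGF. Every cultured group grew on m220-5 feeder cells, which had been adapted to FR10 and then treated with mitomycin C, a DNA crosslinker. The labels give no dose for CsA or the FGF groups, do not say whether FGF10 names a factor or an amount, and leave it unsaid if the CsA and FGF media also held forskolin and rolipram.

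p53 is a transcription factor that is kept scarce by Mdm2, a ubiquitin ligase that binds p53 and sends it to the proteasome, and Mdm2 is itself a p53 target, so the 2 genes form a feedback loop. When DNA damage or other stress frees p53 from Mdm2, p53 binds its response elements and raises a set of target genes. Cdkn1a encodes p21, the inhibitor of cyclin-dependent kinases that stops cells in G1. Ccng1 encodes cyclin G1, which takes part in the feedback on p53 through Mdm2. Phlda3 restrains the kinase Akt, Sesn2 restrains mTORC1, Aen is a nuclease that degrades DNA and RNA in dying cells, Zmat3 is an RNA-binding protein, and Trp53inp1 is a nuclear stress protein that promotes p53 activity. Because control of p53 acts largely on the protein, the messenger RNA of Trp53 and the amount of active p53 are separate quantities, and these libraries measure RNA alone.

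The p53 response element is built from half-sites of 10 bases, and the stretches of Trp53, Mdm2, Cdkn1a and Ccng1 that hold such a half-site just before the annotated start of transcription are shown because these 4 genes carry the largest changes or the feedback loop. RefSeq's promoter table for GRCm38.p6 held 7 of the 9 genes in 9 windows, and the 250 bases before the start were searched on both strands for the p53 half-site consensus, which is its own reverse complement. Each stretch runs 5′ to 3′ on the strand of its gene, with the half-sites in capitals and up to 50 bases on either side.

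Trp53, chr11:69580234-69580343, plus strand: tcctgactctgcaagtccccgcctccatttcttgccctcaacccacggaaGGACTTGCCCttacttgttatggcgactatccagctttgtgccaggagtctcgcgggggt
Mdm2, chr10:117710885-117710994, minus strand: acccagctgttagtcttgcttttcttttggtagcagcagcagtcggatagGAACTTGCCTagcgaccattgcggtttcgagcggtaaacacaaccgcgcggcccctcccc
Cdkn1a, chr17:29090856-29090974, plus strand: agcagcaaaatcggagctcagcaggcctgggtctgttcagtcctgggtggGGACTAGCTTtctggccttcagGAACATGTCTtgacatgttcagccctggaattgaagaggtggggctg
Ccng1, chr11:40755412-40755521, minus strand: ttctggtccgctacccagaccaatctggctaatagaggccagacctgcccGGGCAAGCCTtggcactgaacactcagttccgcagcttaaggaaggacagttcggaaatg

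The half-site began 75 bases before the start in Trp53, 186 in Mdm2 and 185 in Ccng1. Cdkn1a held 2 half-sites, 73 and 51 bases before the first of its 2 annotated starts. The second Cdkn1a start lies 2790 bases further on, and its own window held none. With Aen, in 1 of its 2 windows, 5 of the 7 genes held a half-site. By window it was 5 of the 9, against 7.13% of all 32851 windows. The genes were chosen as p53 and its targets, so this share tests nothing. The windows of Phlda3 and Sesn2 held none. The CCAAT box, letters CCAAT on either strand, was in 6 of the 9 windows, 5 of the 7 genes, and in 33.8% of all windows. The 2 Aen windows overlap, and the CCAAT boxes in them are the same 2 sites. These matches describe the letters of the windows only, and no binding was measured.

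On the GENCODE M21 annotation of GRCm38, the assembly that the submitters' notes call mm10, all 9 are protein-coding genes. Trp53 spans chr11:69580359-69591873 on the plus strand and Ccng1 chr11:40748552-40755311 on the minus strand. Mdm2 lies at chr10:117688875-117710758 (minus), Cdkn1a at chr17:29090976-29100727 (plus) and Phlda3 at chr1:135766119-135769136 (plus). Sesn2 lies at chr4:132492032-132510501 (minus) and Trp53inp1 at chr4:11156431-11174379 (plus). Aen lies at chr7:78895854-78911209 (plus) and Zmat3 at chr3:32334792-32366014 (minus). An annotated gene overlaps Cdkn1a on the opposite strand and another overlaps Sesn2 on the same strand. Neither comes within 1000 bases of the member's 3′ end, where the reads are taken, and neither is among the genes of the files. Only genes that overlap a member were looked for, so neighbours just past a 3′ end were not.

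Library depth, inferred from the smallest step between RPM values, ran from 2127655 to 7541432 reads, at which 3 reads are worth 0.397 to 1.41 RPM. Reads were amplified and carry no molecular identifier, so this floor covers counting error only. The median absolute difference between the replicates of a group over the tested genes was 0.193 to 0.290 on the log2 scale in 6 groups. It was larger in d4c7 FGF2 at 0.468, E9.5c5 FR10 at 0.426 and E9.5c5 CsA at 0.601. Over the 9 members alone the order differed. Their median difference was 0.443 in EpiLCs, 0.352 in d4 PGCLCs and 0.606 in E9.5c5 CsA, and 0.125 to 0.269 in the other groups. The labels call the replicates of the cultured groups biological, and nothing says so for the other 3 groups, whose spread may be technical. Marker genes set EpiLCs apart, while the naive and early germ cell genes were shared by other states. The 5 naive pluripotency genes summed to 1011 to 1073 RPM in ESCs and 42.1 to 48.4 in EpiLCs. They summed to 432 to 494 RPM in d4 PGCLCs and 424 to 645 in the cultured libraries. The 4 EpiLC genes summed to 1642 to 1657 RPM in EpiLCs and at most 121 elsewhere. The 6 early germ cell genes summed to 1407 to 1535 RPM in d4 PGCLCs, 29.5 to 41.8 in EpiLCs and 292 to 334 in ESCs.

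Trp53 RNA was high in 1 state. In d4 PGCLCs it reached 446 and 408 RPM in the 2 libraries, whereas in EpiLCs, the state just before, it stood at 12.6 and 13.5 RPM. ESCs had 82.1 and 66.8 RPM. After 7 days of culture it was at 60.4 and 38.7 RPM in FR10, 37.9 and 48.6 in CsA, 47.1 and 40.1 in FGF10, and 43.0 and 39.4 in FGF2. Cultured E9.5 germ cells had 29.9 and 45.2 RPM in FR10 and 49.4 and 24.1 in CsA. The d4 libraries stood above all 16 others and the EpiLC libraries below all 16 others, and the ESC libraries lay above every cultured library. The 6 cultured groups overlapped with their neighbours in the order of levels, with means from 36.8 ± 17.9 (SD, n = 2) in E9.5c5 CsA to 49.5 ± 15.4 in d4c7 FR10.

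Mdm2, the negative regulator of p53, did not have its peak where Trp53 had its own. It was at 91.3 and 78.6 RPM in ESCs, 59.8 and 40.2 in EpiLCs and 86.9 and 90.0 in d4 PGCLCs. In the d4c7 groups it was at 152 and 169.5 RPM in FR10, 156 and 155 in CsA, 170.2 and 178 in FGF10, and 241 and 158 in FGF2. The E9.5c5 groups had 199.7 and 124 RPM in FR10 and 137 and 77.1 in CsA. The 8 d4c7 libraries were all above the 6 uncultured ones, while the second E9.5c5 CsA library, at 77.1 RPM, lay among the uncultured values. From the lowest group mean, 50.0 ± 13.8 RPM in EpiLCs, to the highest, 199 ± 58.6 in d4c7 FGF2, the ratio was 3.99.

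Cdkn1a, the p21 gene, was lowest in EpiLCs at 5.14 and 7.35 RPM and highest in ESCs at 47.4 and 64.0 RPM, a ratio of 8.92 between the group means. d4 PGCLCs had 40.4 and 24.7 RPM. The 12 cultured libraries lay between 22.5 and 38.2 RPM, and the highest cultured group mean, 37.2 ± 1.42 in FGF2, was 1.37 times the lowest, 27.1 ± 6.58 in d4c7 FR10. The d4 values overlapped with the cultured ones, and outside ESCs and EpiLCs all neighbouring groups in the order of means overlapped.

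Ccng1, the cyclin G1 gene, had the opposite low point. It was at 286 and 304 RPM in ESCs, 228 and 222 in EpiLCs and only 59.6 and 67.2 in d4 PGCLCs, the lowest of the 18 libraries. In d4c7 FR10 it was at 151 and 152 RPM, and the 12 cultured libraries ran from 89.1 to 202 RPM, with the lowest in d4c7 CsA. The order of group means fell from ESC to EpiLC without overlap, and from EpiLC to the cultured groups without overlap, and the d4 group stood apart below them all.

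Phlda3 and Sesn2, the brakes on Akt and mTORC1, were both low in d4 PGCLCs. Phlda3 was at 13.1 and 12.4 RPM in ESCs, 8.76 and 5.80 in EpiLCs and 8.92 and 5.79 in d4 PGCLCs. In culture Phlda3 ran from 12.3 RPM in E9.5c5 FR10 to 27.9 in d4c7 FGF2, with 19.0 and 14.2 RPM in d4c7 FR10. Sesn2 was at 47.2 and 40.0 RPM in ESCs, 50.3 and 44.5 in EpiLCs and 20.7 and 12.4 in d4 PGCLCs. In culture Sesn2 ran from 31.4 RPM in d4c7 FR10, whose other library had 36.6, to 71.3 in E9.5c5 CsA. The 2 highest Sesn2 values, 66.6 and 71.3 RPM, were each the second replicate of a group, d4c7 FGF2 and E9.5c5 CsA, whose first replicate had 41.1 and 35.2 RPM. These are 2 of the 3 groups whose replicates lay furthest apart over all genes, and the part of that spread in these values was not tested.

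Zmat3, the RNA-binding protein gene, was at 64.3 and 62.7 RPM in ESCs and 73.7 and 45.3 in EpiLCs. It was lowest in d4 PGCLCs at 18.3 and 22.6 RPM, and the 12 cultured libraries lay between, from 30.8 to 43.4 RPM. Trp53inp1 was highest in ESCs at 116 and 111 RPM, lower in EpiLCs at 39.2 and 55.7 RPM, and at 79.8 and 102 RPM in d4 PGCLCs. In d4c7 FR10 Trp53inp1 was at 73.6 and 89.1 RPM, and over all 12 cultured libraries it ran from 41.7 to 89.1 RPM. Aen, the nuclease gene, was the steadiest of the 9, with all 18 libraries between 50.5 and 101 RPM, and each group overlapped with the next in the order of means except for d4c7 FR10 and d4c7 FGF2.

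**Figure D1:**
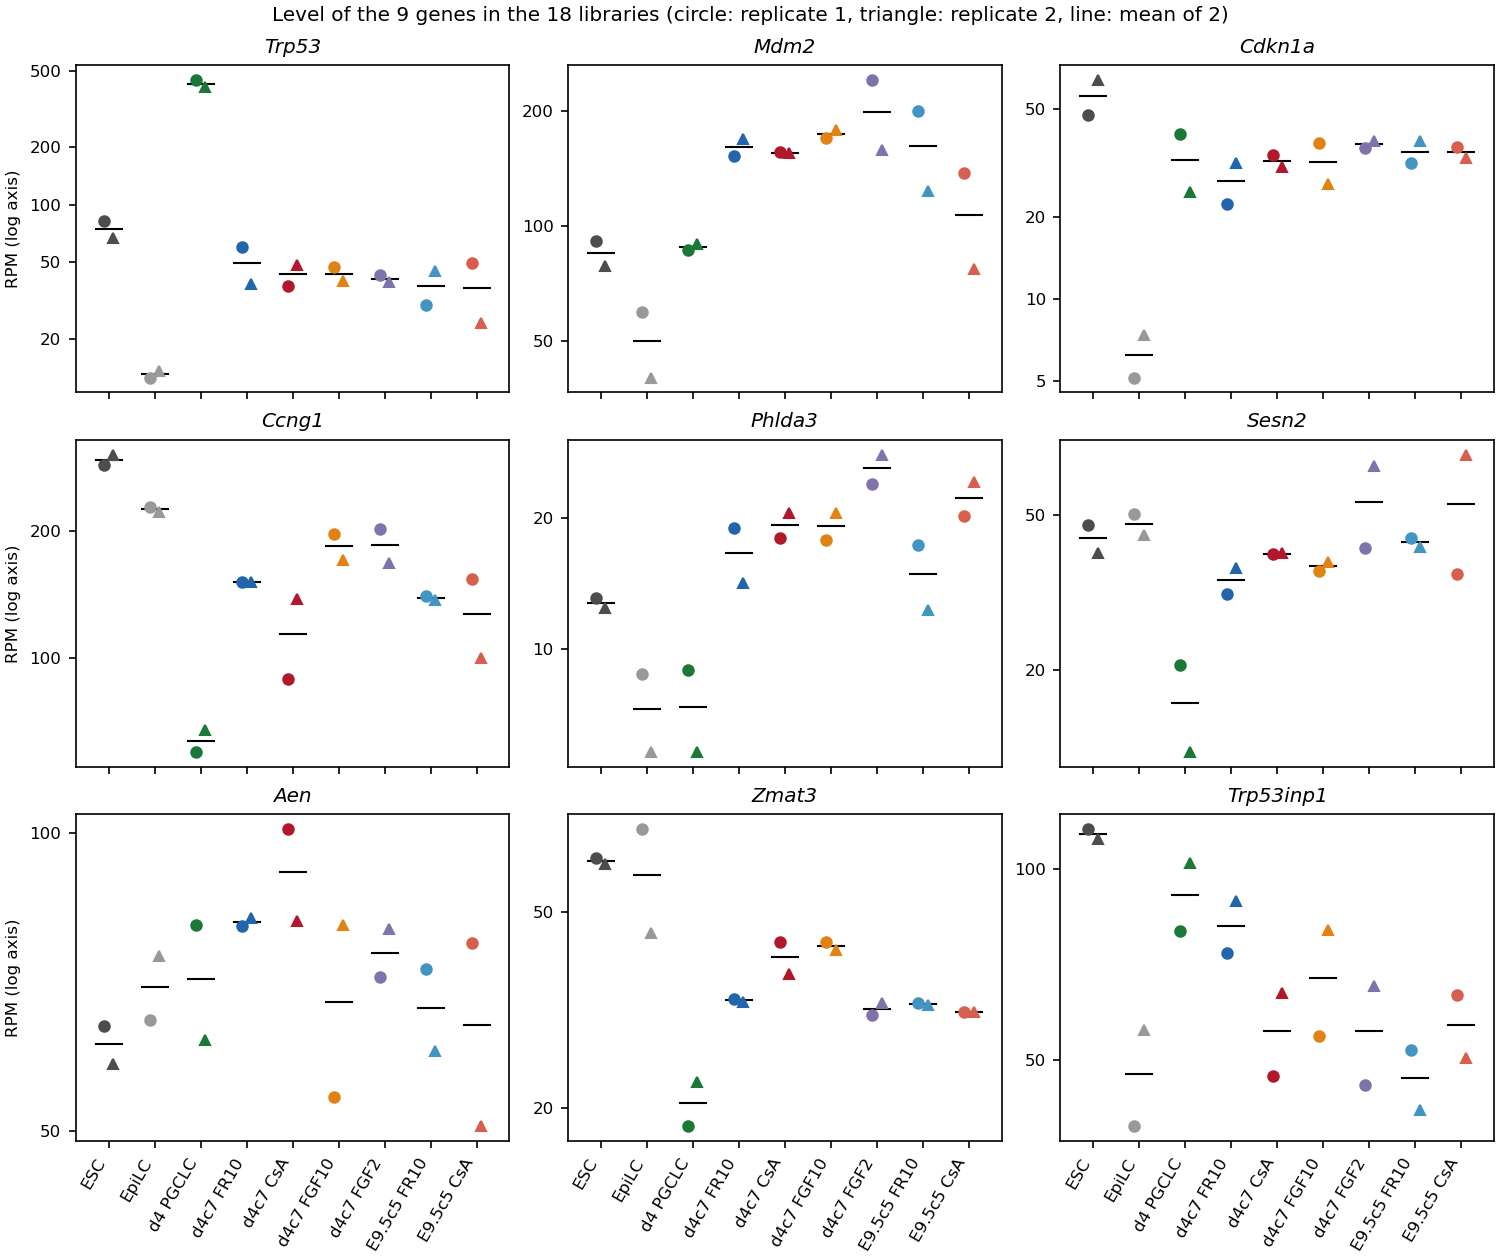
RPM of each of the 9 genes (vertical log axis, a separate scale for each gene) in the 9 groups (horizontal axis), with replicate 1 as a circle, replicate 2 as a triangle and the mean of 2 as a line. Trp53 peaks at 446 and 408 RPM in d4 PGCLCs, where Ccng1, Sesn2 and Zmat3 have their lowest values, and Trp53 and Cdkn1a are lowest in EpiLCs.

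The step from ESCs to EpiLCs, exit from naive pluripotency, lowered Trp53, Cdkn1a and Trp53inp1. Trp53 fell by 2.42 ± 0.32 (log2 fold change on the log2(RPM + 1) scale ± SE, limma, adjusted p = 4.43e-05), a ratio of 5.70 between the means. Cdkn1a fell by 2.97 ± 0.32 (limma adjusted p = 5.14e-06) and Trp53inp1 by 1.26 ± 0.28 (limma adjusted p = 0.00395). Thus 3 of 9 members were lower and 0 higher, where 8.86% of all tested genes were lower, 7.09% higher and 16% called in either direction at an adjusted p under 0.05. With any 1 of the 4 libraries left out, 826 to 942 genes were called in place of 1525. The 2 groups did not overlap for 7 of 9 members and for 68.3% of all tested genes. The 12 fibroblast markers other than Sparc summed to 7.02 and 7.03 RPM in ESCs and 84.4 and 87.4 RPM in EpiLCs. Col6a1, Lum and Postn were at 0 in both groups, and Cxcl12, at 37.0 ± 0.133 RPM, was the highest of the 12 in EpiLCs. Sparc went the other way, from 430 ± 26.1 to 54.4 ± 5.79 RPM. With Sparc the 13 markers summed to 456 and 419 RPM in ESCs and 143 and 138 in EpiLCs. The part of these markers in the results was not tested. The median log2 difference was -0.75 over the 9 members and 0.01 over all tested genes. Without the first EpiLC library Trp53inp1 lost its call, with an adjusted p of 0.0727. Mdm2, which was named here after its values were seen, did not pass (limma adjusted p = 0.0802), yet passed with median-ratio scaling at 0.0328 and with the replicate number as a block at 0.0384.

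The other genes of the pathway were counted by list in the same comparison. Limma called 8 of the 57 tested, where 16% of all tested genes were called, 7.09% higher and 8.86% lower. Of 14 tested p53 regulators and family genes 1 fell, Mdm4, the Mdm2 partner that masks p53, by 1.31 ± 0.31 (from 104 ± 1.90 to 41.7 ± 5.61 RPM). Of 11 cell death targets 1 rose and 1 fell. Pmaip1, the BH3-only death gene known as Noxa, rose by 3.19 ± 0.54, from 27.5 ± 4.92 to 258 ± 6.75 RPM, while Ei24 fell by 1.17 ± 0.36. Of 17 other targets 3 fell and 0 rose: Ak1, an adenylate kinase, by 2.08 ± 0.23, 9630033F20Rik, the Tigar gene of sugar metabolism, by 1.45 ± 0.31, and Pltp, a lipid transfer protein, by 1.62 ± 0.42. Of 13 cyclins, CDKs and their targets 2 fell, Ccnd3 (cyclin D3) by 1.17 ± 0.28 and E2f1 by 0.93 ± 0.30, and 0 of the 2 tested CDK inhibitors were called by limma, with 2 at an unadjusted p under 0.05, as were 27.7% of all genes. The median log2 difference of these lists lay between -0.34 for the other targets and 0.38 for the 2 CDK inhibitors. With 1 library left out, Mdm4, Ei24, Pltp, Ccnd3 and E2f1 each lost their call in at least 1 case, with adjusted p-values up to 0.349.

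The step from EpiLCs to d4 PGCLCs, germ cell specification, split the members. Trp53 rose by 4.93 ± 0.32 (limma adjusted p = 7.10e-09), a ratio of 32.7 between the means of 427 ± 26.5 and 13.1 ± 0.685 RPM. Cdkn1a rose by 2.19 ± 0.32 (limma adjusted p = 5.34e-05), a ratio of 5.21. Trp53inp1 rose by 0.93 ± 0.28 (limma adjusted p = 0.0130) and Mdm2 by 0.84 ± 0.29 (limma adjusted p = 0.0289), ratios of 1.92 and 1.77. The other 3 went down: Ccng1 fell by 1.81 ± 0.23 (limma adjusted p = 1.16e-05), Sesn2 by 1.51 ± 0.33 (limma adjusted p = 0.00189) and Zmat3 by 1.46 ± 0.26 (limma adjusted p = 0.000325). So 4 of 9 members were higher and 3 lower, where 39.6% of all tested genes were called, 27.5% higher and 12.1% lower. The 2 groups did not overlap for 7 of 9 members and for 79.4% of all genes. The same 12 fibroblast markers went from 84.4 and 87.4 RPM in EpiLCs to 8.45 and 18.3 RPM in d4 PGCLCs. Dcn and Lum were at 0 in d4 PGCLCs. Sparc went the other way, from 54.4 ± 5.79 to 329 ± 18.7 RPM. With Sparc the 13 markers summed to 143 and 138 RPM in EpiLCs and 351 and 334 in d4 PGCLCs. The part of these markers was not tested. Phlda3 and Aen did not pass, and their values overlapped between the groups. d4 cells were sorted for mVenus and EpiLCs were not, and in bulk RNA more cells with a transcript and more transcript per cell cannot be told apart.

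RPM are shares of a library, and here the scaling matters. The median log2 difference of all tested genes was 0.34, against 0.02 for the 9 members. Median-ratio scaling, which sets the typical gene equal between libraries, moved the median of all genes to 0.00 and the share of called genes that were higher from 69.5% to 48.3%. Relative to the typical gene Trp53 then rose by 4.57 and Cdkn1a by 1.85. Ccng1 fell by 2.17, Sesn2 by 1.85 and Zmat3 by 1.81. The rises of Mdm2 (0.48, limma adjusted p = 0.132) and Trp53inp1 (0.58, limma adjusted p = 0.107) were no longer called. Mdm2 also lost its call without the second EpiLC library (0.56, adjusted p = 0.262) or either d4 library (adjusted p = 0.0997 and 0.110), and Trp53inp1 without the first EpiLC library (0.69, adjusted p = 0.138) or the second d4 library (0.76, adjusted p = 0.111).

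In the wider pathway 25 of 57 tested list genes were called at this step, in both directions. Of all tested genes 39.6% were called, 27.5% higher and 12.1% lower. Among 14 p53 regulators and family genes 3 rose and 0 fell: the deacetylase Sirt1 by 0.99 ± 0.24, the deubiquitinase Usp7 by 0.81 ± 0.23 and the checkpoint kinase Chek2 by 1.04 ± 0.30. Usp7 and Chek2 were not called with median-ratio scaling (adjusted p = 0.131 and 0.0911) or with some libraries left out. Among 11 cell death targets 2 rose and 2 fell, of which Perp, a membrane protein, rose by 2.43 ± 0.34, Pmaip1 fell by 4.55 ± 0.54 to 10.1 ± 1.61 RPM, and Bbc3, the death gene known as Puma, fell by 1.99 ± 0.46 to 1.95 ± 0.568 RPM. Among 17 other targets 3 rose and 6 fell: Ak1 rose by 2.57 ± 0.23, Psrc1, a spindle protein, fell by 2.83 ± 0.29, and Rps27l, a ribosomal protein, fell by 1.59 ± 0.21. Of the 2 tested CDK inhibitors Cdkn2d (p19) rose by 1.54 ± 0.31. Among the 13 cyclins, CDKs and their targets 5 rose and 3 fell, among them 2 cyclin D genes in opposite directions: Ccnd1 fell by 4.85 ± 0.58, from 82.4 ± 0.459 to 2.11 ± 1.66 RPM, and Ccnd3 rose by 3.56 ± 0.28, from 8.05 ± 2.08 to 106 ± 26.1 RPM. E2f2 rose by 2.88 ± 0.46. The lists' median log2 differences ran from 0.01 for the other targets to 1.32 for the CDK inhibitors.

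**Figure D2:**
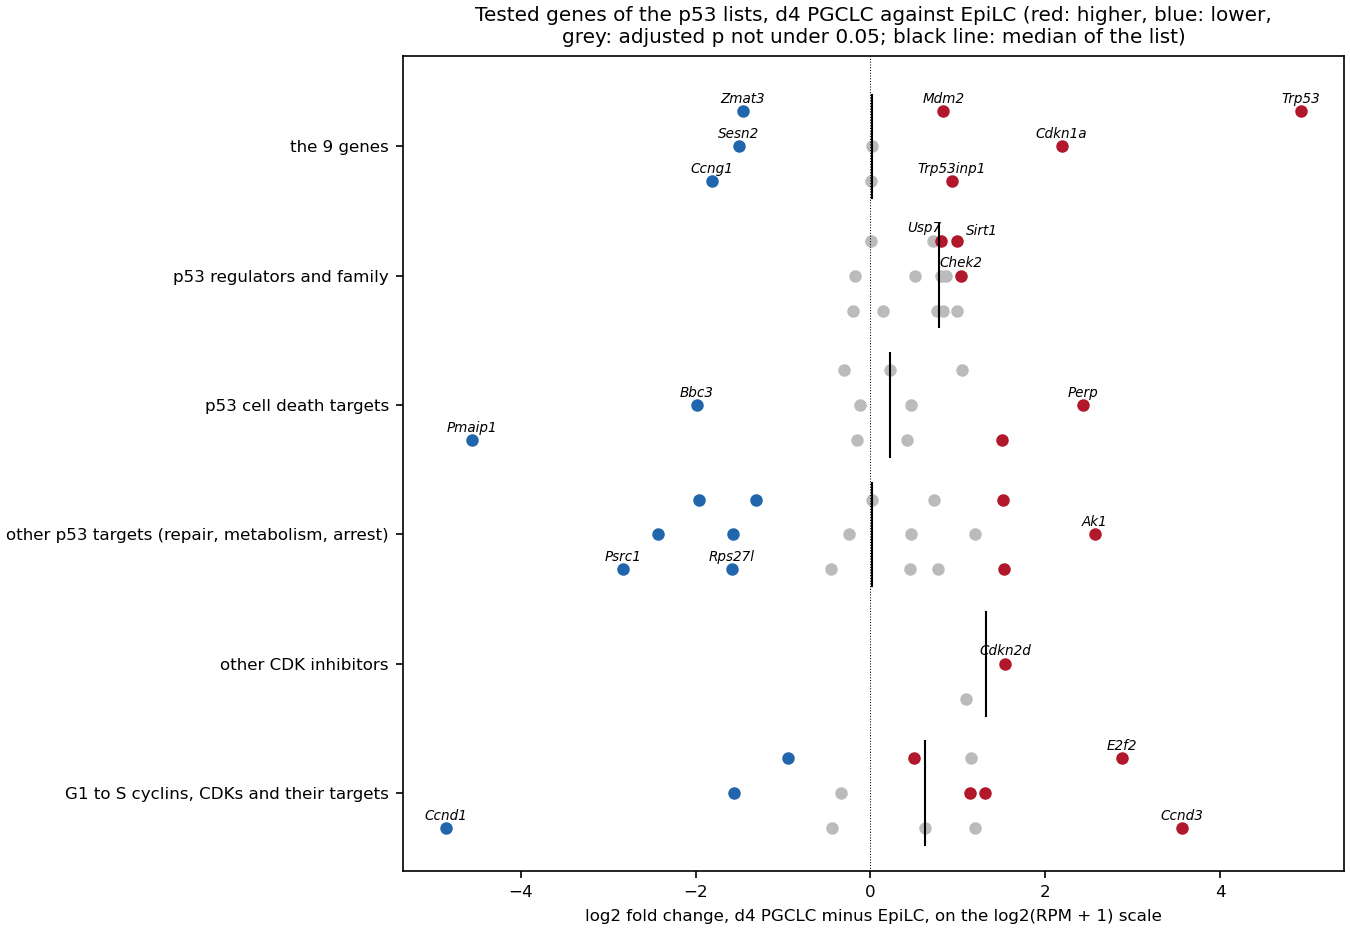
Log2 fold change on the log2(RPM + 1) scale, d4 PGCLC minus EpiLC (horizontal axis), of each tested gene of the 9 and of the 5 pathway lists (rows), with called genes in red or blue, the others in grey and the median of a list as a black line. Trp53 at 4.93 is the highest point and Ccnd1 at -4.85 the lowest, and all lists but the regulators and the 2 CDK inhibitors hold called genes on both sides.

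Culture in FR10 for 7 days was set against uncultured d4 PGCLCs. Trp53 fell by 3.11 ± 0.32 (limma adjusted p = 9.04e-06), a ratio of 8.62, to a level below that of ESCs and above that of EpiLCs. Ccng1 rose by 1.24 ± 0.23 (limma adjusted p = 0.00133), a ratio of 2.39. Sesn2 rose by 1.04 ± 0.33 (limma adjusted p = 0.0445) and Phlda3 by 1.08 ± 0.35 (limma adjusted p = 0.0481), ratios of 2.06 and 2.25. Thus 3 of 9 members were higher and 1 lower, where 15.2% of all tested genes were called, 7.01% higher and 8.22% lower. The 2 groups did not overlap for 6 of 9 members and for 65.7% of all genes. With any 1 of the 4 libraries left out, 573 to 825 genes were called in place of 1456. The median log2 difference was 0.67 over the members and -0.07 over all tested genes. Cdkn1a, at 22.5 and 31.8 RPM after culture, overlapped with its d4 values, as did Aen and Trp53inp1.

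The rises of Sesn2 and Phlda3 lay close to the threshold. Leaving out any 1 of the 4 libraries ended both calls, with adjusted p-values of 0.050003 to 0.340 for Sesn2 and 0.0784 to 0.303 for Phlda3. Phlda3 was also not called with the replicate number as a block (adjusted p = 0.0507), with a pseudocount of 0.1 or 10 RPM (adjusted p = 0.0547 and 0.0502) or with only the 2 groups fitted (adjusted p = 0.0642). Sesn2 was also not called with median-ratio scaling (adjusted p = 0.0535), a pseudocount of 10 RPM (adjusted p = 0.0605) or no filter (adjusted p = 0.0763). Mdm2, named here after its values were seen, was at 152 and 169.5 RPM against 86.9 and 90.0, all above, and did not pass (limma adjusted p = 0.0553). Mdm2 passed with median-ratio scaling (adjusted p = 0.0151) and with the replicate block (adjusted p = 0.0251).

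The d4c7 cells bear another strain label than the d4 cells, and strain cannot be told apart from culture here. Markers of other cells also moved with this comparison: the 12 fibroblast markers other than Sparc summed to 8.45 and 18.3 RPM in d4 PGCLCs and to 215 and 169.9 RPM in d4c7 FR10, with Lum and Thy1 at 0 in both FR10 libraries, and with Sparc, which ESCs also had, the 13 markers summed to 351 and 334 against 302 and 259 RPM. The part of feeder RNA in these results was not tested. The later germ cell genes Ddx4 and Dazl summed to 7.51 and 15.6 RPM before culture and 809.7 and 954 RPM after it.

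Among the other genes of the pathway, 11 of the 57 tested were called in FR10 culture. Of all tested genes 15.2% were called, 7.01% higher and 8.22% lower. Of 14 regulators 2 rose and 1 fell. Mdm4 rose by 1.41 ± 0.31, Ppm1d, the phosphatase Wip1, by 0.92 ± 0.30, and Chek2 fell by 1.18 ± 0.30. Limma called 0 of 11 cell death targets, with 2 at an unadjusted p under 0.05, as were 28.3% of all genes. Of 17 other targets 3 rose and 1 fell: Gadd45a, a growth arrest and DNA damage gene, fell by 2.60 ± 0.28, from 179 ± 26.6 to 28.4 ± 0.792 RPM, and Rps27l rose by 1.52 ± 0.21 and Dcxr by 1.57 ± 0.50. Cdkn1c, the CDK inhibitor p57, fell by 2.69 ± 0.65 to 3.04 ± 1.56 RPM. Of the 13 cyclins, CDKs and their targets 2 rose and 1 fell: Ccne1 (cyclin E1) by 0.95 ± 0.21 and Rb1 by 1.54 ± 0.36 upwards, and E2f3 by 2.22 ± 0.55 downwards. Gadd45a and Rps27l kept their call in every alternative run, and the other 8 named here lost it with at least 1 library left out. Cdkn2a, whose p19Arf product restrains Mdm2, was too low to test, at 0 in both d4 libraries and at most 0.972 RPM in any library.

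**Figure D3:**
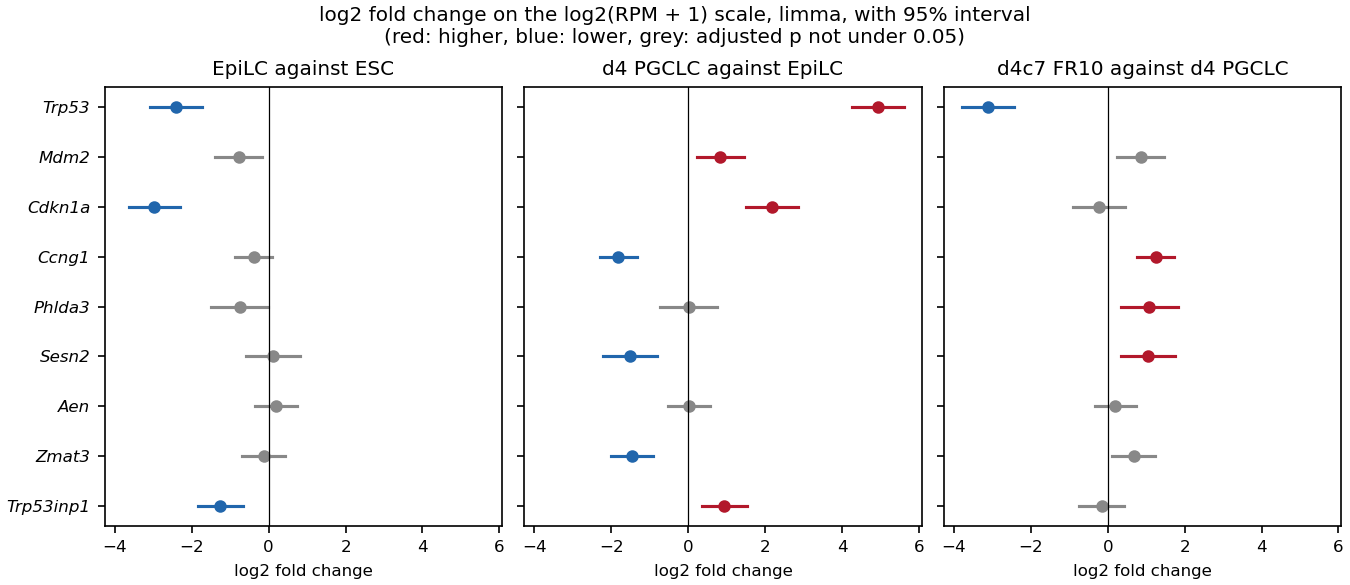
Log2 fold change on the log2(RPM + 1) scale with its 95% interval (horizontal axis) for the 9 genes (rows) in 3 comparisons (panels), red for higher, blue for lower and grey for an adjusted p of 0.05 or more. Trp53 is lower, then higher, then lower again, at -2.42, 4.93 and -3.11, and Ccng1 takes the opposite direction at the last 2 steps.

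The factors added to culture were each set against FR10. CsA is a calcineurin inhibitor and FGF2 a growth factor that signals through MAP kinase. In d4c7 CsA against d4c7 FR10 limma called 0 of 9 members, where 0.0314% of all tested genes were called, and 0 members reached an unadjusted p under 0.05, as 13.8% of all genes did. The members' log2 differences ran from -0.55 to 0.28, with 95% intervals that reached from -1.14 to 0.96, and the groups did not overlap for 4 members and 53% of genes. The 12 fibroblast markers other than Sparc summed to 147 and 32.6 RPM in CsA and 215 and 169.9 in FR10. Ddx4 and Dazl summed to 355 and 509 RPM in CsA and 809.7 and 954 in FR10. The 6 early germ cell genes overlapped, at 1838 and 1947 RPM against 1953 and 1919. The part of these markers was not tested. In d4c7 FGF10 limma called 0 of 9 members and 0% of all genes, with 0 members at an unadjusted p under 0.05 against 4.99% of genes, and differences from -0.29 to 0.36 with intervals from -0.87 to 0.96. In FGF10 the groups did not overlap for 3 members and 40.1% of genes.

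FGF2 culture differed from FR10 in 8.84% of all tested genes, 1.37% higher and 7.47% lower, and in 0 of 9 members (limma, 0 at an unadjusted p under 0.05 against 28.9% of genes). That count over all genes, 845, was 5 without the first and 151 without the second FR10 library, 1722 without the first and 75 without the second FGF2 library, 2 with only the 12 cultured libraries fitted and 0 with only the 2 groups fitted. The members' log2 differences ran from -0.56 to 0.63 with intervals from -1.14 to 1.38. Among genes picked out after their values were seen, Phlda3 in FGF2, at 24.0 and 27.9 RPM, lay above its FR10 values of 19.0 and 14.2, and Sesn2, at 41.1 and 66.6, above 31.4 and 36.6. Groups did not overlap for 7 of the 9 members, as for 58.5% of all genes. All tested genes had a median log2 difference of -0.33. Median-ratio scaling brought that median to -0.03. With it the share of called genes that were higher moved from 15.5% to 51.8%, and the members' differences ran from -0.25 to 0.92 with 0 called (lowest limma adjusted p = 0.0790). In d4c7 CsA the same scaling moved the median over the tested genes from -0.24 to -0.02, and the members' differences then ran from -0.33 to 0.50, also with 0 called.

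Of the 57 tested genes of the wider pathway, 7 passed in FGF2. Of all tested genes 8.84% passed there, 1.37% higher and 7.47% lower. Sirt1 fell by 1.11 ± 0.24 and Atm, the damage-sensing kinase, by 1.37 ± 0.32, to 25.8 ± 1.75 RPM from 68.3 ± 3.50. Bbc3 rose by 1.80 ± 0.46, Ak1 by 0.99 ± 0.23, Psrc1 by 0.99 ± 0.29 and Cdk6 by 1.37 ± 0.38, and Ccng2 (cyclin G2) fell by 2.18 ± 0.60. By list that made 0 higher and 2 lower of 14 regulators, 1 and 0 of 11 death targets, 2 and 0 of 17 other targets, and 1 and 1 of 13 cyclins, CDKs and their targets. All 7 lost their call with at least 1 of the 4 libraries left out, with adjusted p-values up to 0.279, and also with only the 12 cultured libraries or only the 2 groups fitted. The 6 early germ cell genes summed to 1953 and 1919 RPM in FR10 and 1042 and 818 in FGF2, and the 12 fibroblast markers other than Sparc to 215 and 169.9 RPM in FR10 and 75.0 and 33.5 in FGF2, with Lum and Thy1 at 0 in both groups. Neither set overlapped between the groups, and their part in these results was not tested. Limma called 0 of the 57 in each of the other 5 comparisons among cultured groups, with 7 at an unadjusted p under 0.05 in d4c7 CsA (13.8% of all genes), 5 in d4c7 FGF10 (4.99%), 4 in E9.5c5 CsA (7.35%), 7 between the 2 FR10 groups (14.9%) and 5 in the difference of the CsA effects (6.44%).

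In cultured E9.5 germ cells CsA against FR10 gave 0 called members and 0% of all genes, with 0 members at an unadjusted p under 0.05 against 7.35% of genes. The members' log2 differences ran from -0.61 to 0.56, with intervals from -1.21 to 1.31, and the groups did not overlap for 2 members and 25.4% of genes. Ddx4 and Dazl summed to 768 and 124 RPM in FR10 and 403 and 65.6 in CsA, lower in the second library of each. The 12 fibroblast markers other than Sparc summed to 72.8 and 77.3 RPM in FR10 and 67.2 and 16.8 in CsA. The 6 early germ cell genes overlapped, at 3579 and 2904 RPM against 4008 and 2569. The part of these markers was not tested. Mdm2, named after its values were seen, was at 199.7 and 124 RPM in FR10 and 137 and 77.1 in CsA, which overlap. Leaving out the first E9.5c5 CsA library turned this into a called fall of 1.02 (limma adjusted p = 0.0460), which then rests on the lone library at 77.1 RPM, assumed to vary like the other groups. The difference between the CsA effects in E9.5c5 and d4c7 was called for 0 members and 0% of all genes, with 1 member, Trp53inp1, named for that reason, at an unadjusted p under 0.05 (limma adjusted p = 0.773) against 6.44% of genes.

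E9.5 germ cells and PGCLCs were also compared in FR10. In E9.5c5 FR10 against d4c7 FR10 0 of 9 members and 0.0418% of all genes were called by limma. Trp53inp1, named after its values were seen, reached an unadjusted p under 0.05 (limma adjusted p = 0.234), as did 14.9% of genes, and its values of 51.7 and 41.7 RPM lay below the 73.6 and 89.1 of d4c7 FR10. Over the members the log2 differences ran from -0.79 to 0.37 with intervals from -1.37 to 1.04, and the groups did not overlap for 5 members and 49% of genes. The 12 fibroblast markers other than Sparc summed to 72.8 and 77.3 RPM in E9.5c5 FR10 and 215 and 169.9 in d4c7 FR10. The 6 early germ cell genes summed to 3579 and 2904 RPM against 1953 and 1919. Ddx4 and Dazl summed to 768 and 124 RPM against 809.7 and 954. The part of these markers was not tested. Source, reporter, strain label and days of culture all differ between these groups and cannot be told apart.

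**Figure D4:**
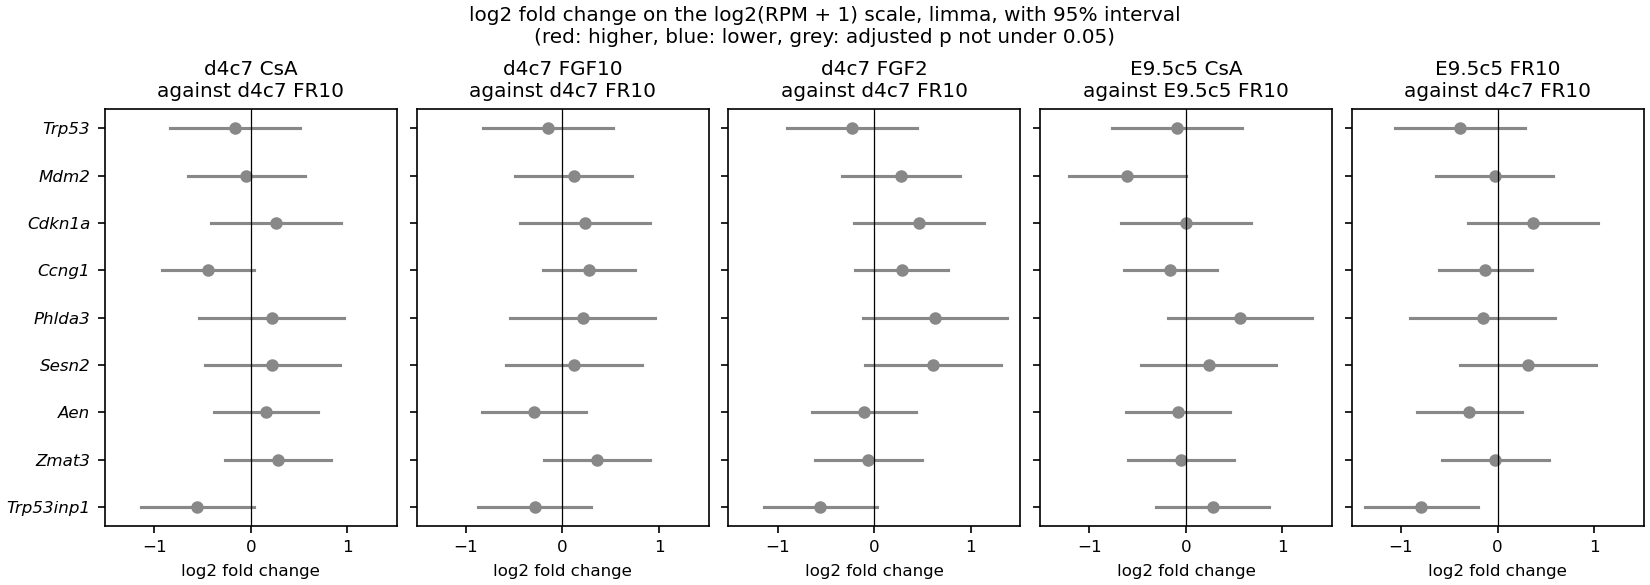
Log2 fold change on the log2(RPM + 1) scale with its 95% interval (horizontal axis) for the 9 genes (rows) in the 5 comparisons between cultured groups (panels), all in grey because 0 passed. The points lie between -0.79 and 0.63, and the widest reaches of the intervals are -1.37 and 1.38.

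Likeness between the patterns is given as Pearson's r over the 9 group means of log2(RPM + 1), as a description without a test, since all points share the same libraries and 1 or 2 groups set much of each r. Trp53 had r = 0.04 with Mdm2, 0.50 with Cdkn1a, 0.68 with Trp53inp1, -0.62 with Ccng1 and -0.87 with Sesn2. Over the 6 cultured group means alone these were 0.62, -0.75, 0.76, 0.32 and -0.74 in the same order, so the sign turned for Cdkn1a and Ccng1. Ccng1 and Zmat3 had r = 0.87 and Mdm2 and Phlda3 0.79, the highest of the 36 pairs after it, against 0.02 and 0.01 over the cultured groups. The 3 tested genes most like Trp53 were Grhl3 (0.968), Abca7 (0.965) and Sgol2a (0.964). Those most like Cdkn1a were S100a13 (0.977), Nr5a2 (0.968) and Esrrb (0.967), of which Esrrb is one of the naive pluripotency markers. Mdm2 was most like Cchcr1 (0.983), Trim28 (0.981) and Chtf18 (0.975), and Ccng1 like Ets2 (0.971), Pdxk (0.959) and Cds2 (0.952). Phlda3 had Apoc2 (0.972), Rnf169 (0.966) and Tmem191c (0.956) nearest to it, and Sesn2 had the ribosomal protein gene Rps12 (0.978), Ddt (0.953) and the ribosomal protein gene Rpl8 (0.946). Zmat3 was nearest to Clstn1 (0.950), Ergic3 (0.943) and Ets2 (0.943), Trp53inp1 to Cast (0.983), Cmtm6 (0.956) and Frmd4b (0.949). Aen, with its narrow range, had no gene as close, Smarca2 at 0.912, Med28 at 0.892 and Sec63 at 0.873.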

How the data were processed

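SC3-seq libraries from 18 samples in 9 groups of 2 were used. The deposited values are RPM, scaled by the authors to each library's total, for 34896 symbols a file, from which 46 without a value were dropped. Per the submitters' processing notes, mm10, Cufflinks 2.2.0, TopHat 1.4.1 and cutadapt 1.3 were used, in roles not stated. Annotation and strand setting of the counting: not given in the sources used here. Genes with near-identical 3′ ends may share reads. Library totals were 999098 to 999617 RPM. Low values were whole multiples of a step in 99.5% to 99.8% of cases (tolerance 0.02 read), but 32 to 56 values a library lay far below the step, so no count model was used. The planned test on recovered reads was not run.

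Genes with 10 RPM in at least 2 libraries (9561) were tested with limma 3.58.1 in R 4.3.3 on log2(RPM + 1), a pseudocount of 1 RPM, which understates changes of low genes. All 18 libraries entered with a mean per group, a variance trend and 9 residual degrees of freedom. A gene was called at a Benjamini-Hochberg adjusted p under 0.05 over all genes tested, two-sided, and every adjusted p is from limma. The test was checked on simulated data. Replicate numbers have no stated meaning and were no block in this fit.

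The 9 members and the 5 pathway lists (75 genes beside the members, all in the files) were chosen with earlier results of these data known. Fold changes are printed for members that passed or differed by at least 1 on the log2 scale (1 more, Mdm2 in E9.5c5 CsA, under an alternative in which it passed), and for up to 3 passing genes of a list by smallest p. For likeness, the 3 tested genes with the highest r are named, without predicted or clone names. As alternatives the fit was repeated with a pseudocount of 0.1 or 10 RPM, with no filter or 50 RPM, with median-ratio scaling over the 9544 genes present in every library, with a replicate block, on only the groups compared or the 12 cultured libraries, without the second replicates of d4c7 FGF2, E9.5c5 FR10 and E9.5c5 CsA, and each library left out.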

Additional observations from a re-analysis of the deposited data

How the results depend on the processing

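Of the 14 called fold changes of members, 165 recomputations kept the direction in all cases and the call in 141, and 24 lost the call. Of the 38 printed fold changes of list genes, 449 recomputations kept the direction in all cases and the call in 353. In every alternative run, Trp53 kept its call at all 3 steps, Cdkn1a and Ccng1 at the 2 where each was called, and Zmat3 and Sesn2 at the d4 step. Cdkn1a and Phlda3 were not tested with the 50 RPM filter. For EpiLC against ESC the 3 called members became 5 with only the groups compared, adding Mdm2 (limma adjusted p = 0.0301) and Ccng1 (limma adjusted p = 0.0105), and were 2 to 3 with 1 library left out. For d4 PGCLC against EpiLC the 7 were 5 to 6 with 1 library left out. For d4c7 FR10 against d4 PGCLC the 4 became 2 with any of the 4 libraries left out, the 2 being the Trp53 fall and the Ccng1 rise, and 6 without the 3 second replicates that repeat less closely. For E9.5c5 CsA against E9.5c5 FR10 the count was 0 to 1 with 1 library left out. In the other 5 comparisons it was 0 in all alternatives run. With the replicate block the called members were 4, 7 and 4 at the 3 steps and 0 in the other 6 comparisons. Same-numbered libraries deviated together with correlations of -0.0301 to 0.340 over genes, and nothing says that the numbers mark a shared batch. The counts over all genes moved more: 1525 (826 to 3182) for EpiLC against ESC, 3784 (2256 to 5438, and 2329 to 2761 with 1 library left out) for d4 PGCLC against EpiLC, 1456 (573 to 2964) for d4c7 FR10 against d4 PGCLC, and 845 (0 to 1722) for d4c7 FGF2 against d4c7 FR10. They were 0 (0 to 36) for d4c7 FGF10, 0 (0 to 654) for E9.5c5 CsA, 4 (0 to 259) for E9.5c5 FR10 against d4c7 FR10 and 0 (0 to 6) for the difference of the CsA effects, the last 3 upper ends each with 1 library left out. For d4c7 CsA it was 3 (0 to 968), with 66.7% higher against 88.9% with median-ratio scaling. A test on reads recovered from the RPM was planned and not run. The cause of each change was not tested. The 2 libraries a group limit what could be detected.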

Other observations

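Of the 75 other genes of the 5 lists, 18 were too low to test, and their levels are given without a comparison. The p53 family gene Trp63 was at 0 in 14 of the 18 libraries and highest in d4 PGCLCs at 4.88 ± 2.92 RPM (SD, n = 2), and its relative Trp73 had a median of 3.68 RPM and at most 8.79. Fas, a death receptor gene, was at 0 in 15 libraries and at most 0.306 RPM. Plk3, a stress-responsive kinase gene, had a median of 1.63 RPM and its highest group mean, 15.8 ± 10.3 RPM, in d4 PGCLCs. Ccnd2, the third cyclin D gene, likewise had its highest group mean in d4 PGCLCs, at 12.7 ± 6.04 RPM. Its d4 libraries had 8.45 and 17.0 RPM, and the first d4c7 FGF10 library, at 9.64 RPM, lay between them. The CDK inhibitor gene Cdkn1b (p27) stayed between 0.470 and 6.10 RPM in all 18 libraries. Sesn1, the paralogue of Sesn2, was at most 2.90 RPM, with 2.86 ± 0.0556 RPM in d4 PGCLCs.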
